A study of Caenorhabditis elegans with 2 samples.

Results

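The 10 GATA factor genes of *Caenorhabditis elegans* described here, *elt-1*, *elt-3*, *egl-18*, *elt-6*, *elt-2*, *elt-7*, *end-1*, *end-3*, *med-1* and *med-2*, were chosen by name from 19973 protein-coding genes. They were examined as places where one member of the family, ELT-3, was found on chromatin by immunoprecipitation and sequencing (ChIP-seq), with an antibody recorded only as elt-3. The animals were whole L3 larvae, recorded as males and females pooled. They were of strain OP75, genotype unc-119(ed3) III; wgIs75, a stably transgenic line whose ELT-3 is fused at its C terminus to GFP and FLAG. Both samples are biological replicates of this 1 group, and both carry the *unc-119* mutation and the transgene. The sources used here do not state the regulatory sequence, extent or copy number of wgIs75, and no files from animals without the tagged protein were used. For each gene, regions were taken whose summit lay between 5000 bases upstream of the first annotated start and 2000 bases past the gene end.

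GATA factors are zinc finger proteins that bind DNA at the sequence WGATAR, which may read AGATAA or AGATAG, and also TGATAA or TGATAG, on either strand. In the worm, chains of such factors set up the epidermis and the intestine in the embryo. ELT-1 commits cells to epidermal fate and ELT-3 acts after it in epidermal differentiation, while EGL-18 and ELT-6 act in the seam cells, a row of epidermal stem cells. In the other chain MED-1 and MED-2 specify the precursor of mesoderm and endoderm, END-1 and END-3 specify the endoderm, and ELT-2 and ELT-7 keep the intestine differentiated.

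Sequences are shown first for the windows on which the results turn, read from 5′ to 3′ on the plus strand of WBcel235 (ce11), which is the coding strand of each of the 10 genes. Each runs 100 bases to either side of a summit, and capitals mark WGATAR or its reverse complement. The first 4 are at *elt-3* and the next is in the window of *med-1*. The last pair are the strongest regions inside *elt-1* and *egl-18*, which are weaker and are shown for contrast.
elt-3 at +2611, chrX:13937385-13937585: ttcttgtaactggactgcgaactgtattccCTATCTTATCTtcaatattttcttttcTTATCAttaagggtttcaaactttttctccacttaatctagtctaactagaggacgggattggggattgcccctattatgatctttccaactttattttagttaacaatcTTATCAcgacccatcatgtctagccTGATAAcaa
elt-3 at +3295, chrX:13938069-13938269: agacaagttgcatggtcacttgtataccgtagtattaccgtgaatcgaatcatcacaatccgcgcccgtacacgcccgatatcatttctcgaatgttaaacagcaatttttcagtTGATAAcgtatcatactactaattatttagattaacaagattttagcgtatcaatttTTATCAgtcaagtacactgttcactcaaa
elt-3 at +4664, chrX:13939438-13939638: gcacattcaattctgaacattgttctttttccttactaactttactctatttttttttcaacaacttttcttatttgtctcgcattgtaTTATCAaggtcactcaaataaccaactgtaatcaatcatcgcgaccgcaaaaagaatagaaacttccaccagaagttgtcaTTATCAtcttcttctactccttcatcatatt
elt-3 at +6585, chrX:13941359-13941559: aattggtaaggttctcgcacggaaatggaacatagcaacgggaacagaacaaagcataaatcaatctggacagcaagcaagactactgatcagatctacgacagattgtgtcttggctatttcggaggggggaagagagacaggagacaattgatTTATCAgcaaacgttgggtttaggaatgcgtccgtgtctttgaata
med-1 at -4943, chrX:12425566-12425766: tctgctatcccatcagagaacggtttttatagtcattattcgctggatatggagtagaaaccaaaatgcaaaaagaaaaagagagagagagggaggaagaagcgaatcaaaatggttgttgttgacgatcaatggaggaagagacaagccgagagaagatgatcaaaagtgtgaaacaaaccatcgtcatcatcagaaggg
elt-1 at +870, chrIV:9615765-9615965: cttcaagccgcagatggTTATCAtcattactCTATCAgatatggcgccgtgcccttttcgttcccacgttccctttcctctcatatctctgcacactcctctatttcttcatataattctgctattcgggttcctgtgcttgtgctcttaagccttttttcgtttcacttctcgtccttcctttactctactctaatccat
egl-18 at +4560, chrIV:1906782-1906982: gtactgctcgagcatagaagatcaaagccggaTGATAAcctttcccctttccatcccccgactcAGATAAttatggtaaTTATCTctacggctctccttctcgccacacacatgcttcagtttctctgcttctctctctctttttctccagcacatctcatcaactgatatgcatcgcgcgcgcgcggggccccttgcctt

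The 4 windows at *elt-3* hold 5, 2, 2 and 1 GATA sites in the order printed, the *med-1* window holds 0, *elt-1* holds 2 and *egl-18* holds 3. The repeat GAGAGA, sought on both strands, is in the *med-1* and *egl-18* windows and in the *elt-3* window at +6585. That repeat was in 34.4% of such windows over the IDR list and in 14.1% over the pooled regions below its threshold. The IDR list is the one deposited as passing a threshold of reproducibility between replicates. A match to these letters describes the sequence and is not a measured site.

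The deposited lists give each region a signal value on a scale that no label or header states, and no read counts, so depth is unknown. Signals were therefore compared within a list. The IDR list holds 774 regions with signals of 29.5 to 133.1. All are drawn from 30000 regions called on both replicates together (the pooled list, 10.3 to 133.1, median 13.1). The pooled signal at rank 774 is also 29.5, so the IDR list is the 774 strongest pooled regions. Membership therefore follows pooled signal and does not show that a single region was reproduced. Each replicate also has its own list of 30000, with signals of 6.21 to 82.8 in replicate 1 and 4.38 to 51.1 in replicate 2. These long lists hold background as well as peaks, so a region in them is not by itself a binding site. In whole animals, binding in fewer cells and less binding per cell cannot be told apart.

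*elt-3* was the member with strong ELT-3 regions, and most of the family lay near the level of any coding gene. An IDR summit lay in the windows of 2 of the 10 genes, *elt-3* with 4 and *med-1* with 1, against 6.9% of all coding genes. By family this was 1 of the 4 epidermal and 1 of the 6 endodermal genes. Among the 774 strongest regions of replicate 1, only *elt-3* of the 10 had a region (5 regions), against 6.73% of coding genes. Among those of replicate 2, *elt-3* (5 regions) and *med-1* (1 region) did, against 6.98% of coding genes. With 10 genes, 2 carry these counts, and they are given as a description with no test.

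**Figure D1:**
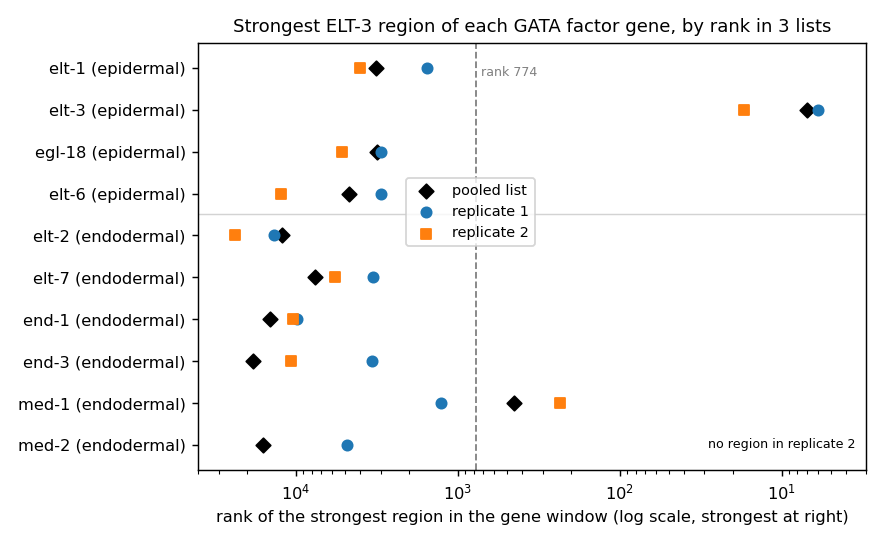
Rank of the strongest region in the window of each GATA factor gene (log axis, strongest at right), in the pooled list (diamonds), replicate 1 (circles) and replicate 2 (squares), with rank 774 as a dashed line. Those of *elt-3* are at ranks 7, 6 and 17, *med-1* crosses the line in the pooled and replicate 2 lists, and all other points are weaker than rank 774.

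The strongest pooled signal was 92.5 at *elt-3*, 19.4 at *egl-18*, 19.3 at *elt-1* and 17.5 at *elt-6* among the epidermal genes. Among the endodermal genes it was 35.4 at *med-1*, 15.6 at *elt-7*, 13.9 at *elt-2*, 13.2 at *end-1*, 12.9 at *med-2* and 12.3 at *end-3*. The medians were 19.4 over the epidermal genes and 13.5 over the endodermal genes, beside 16.5 over all 10 members and 15.3 over all coding genes, where the 1606 genes with no pooled region were counted as lowest. Apart from *med-1*, each epidermal value was thus above each endodermal value, although the gap between *elt-6* (17.5) and *elt-7* (15.6) is small. The *elt-6* value also belongs to a region in a coding exon of *egl-18*, which lies in both windows. The next region of the *elt-6* window, at 15.35, was below that of *elt-7*. Neighbouring values in this order have no replicate error of their own. The replicates ordered some of these genes differently. In replicate 1, *end-3* (12.3) and *elt-7* (12.4) were close to *egl-18* and *elt-6*, which share the same strongest region there (12.7). In replicate 2 *elt-7* (7.92), *end-1* (6.62) and *end-3* (6.56) were above *elt-6* (6.34).

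Against the whole genome, 6 coding genes, or 0.0300%, had a stronger region than *elt-3* in the pooled list. For *med-1* this was 4.02%, for *egl-18* 23.2%, for *elt-1* 23.4% and for *elt-6* 32.3%. The remaining endodermal genes were passed by 47.0% of coding genes (*elt-7*), 64.1% (*elt-2*), 70.6% (*end-1*), 74% (*med-2*) and 78.8% (*end-3*). The 5 endodermal genes other than *med-1* were therefore near or below the median of coding genes. Longer windows can hold more regions. Those of the members ran from 7525 bases (*med-1* and *med-2*) to 22519 (*egl-18*), with a median of 9027 over all coding genes. Every epidermal window (10667 bases or more) was longer than every endodermal one (9417 or less). Family and window length therefore cannot be told apart in the order of the strongest signals.

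**Figure D2:**
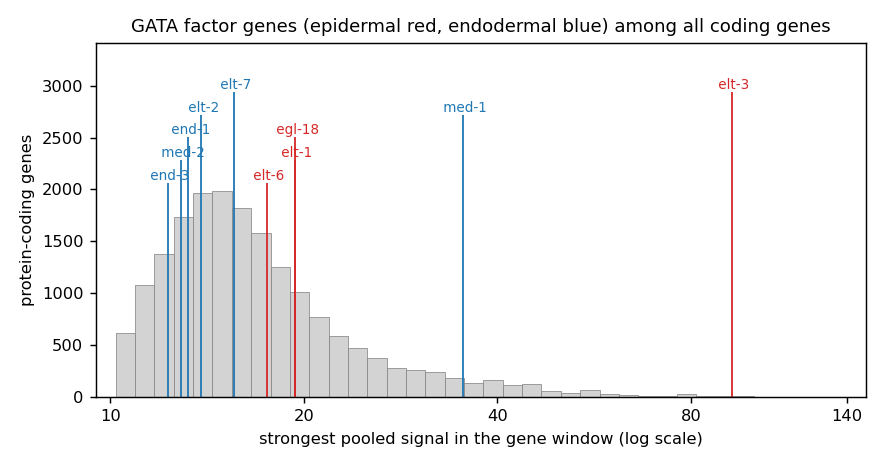
Number of protein-coding genes by the strongest pooled signal in their window (grey bars, log axis), with the epidermal GATA factor genes as red lines and the endodermal ones as blue lines. The line of *elt-3* at 92.5 is at the far right of the distribution, *med-1* is at 35.4, and the other 8 lie between 12.3 and 19.4. The bars leave out the 1606 genes with no pooled region, and with these counted as lowest the median is 15.3.

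*elt-3* lies on chromosome X from 13934874 to 13941216, and its transcripts begin at 6 annotated starts. The first 3 are 0, 9 and 122 bases from the first start and the later 3 are 3869, 4466 and 4852 bases from it. The IDR regions did not lie upstream of the first starts. Of the 4, 2 were in the long intron of 3622 bases (chrX:13935121-13938742) that ends at the start at +3869, 1 was in a later intron, and 1 was past the gene end. The strongest (chrX:13937315-13937654, rank 7 of the pooled list) had a summit at +2611, 1258 bases upstream of the start at +3869, with a pooled signal of 92.5, 59.7 in replicate 1 and 35.0 in replicate 2. It ranked 6 in replicate 1 and 19 in replicate 2.

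The second region of *elt-3* (chrX:13937999-13938338) had its summit at +3295, 574 bases upstream of the same start, with a pooled signal of 80.4 (rank 15), 51.3 in replicate 1 (rank 14) and 35.6 in replicate 2 (rank 17). In replicate 2 it was therefore slightly above the first. The third (chrX:13941289-13941628) lay 243 bases past the gene end with a pooled signal of 53.5 (rank 105), 27.7 in replicate 1 (rank 215) and 23 in replicate 2 (rank 106). The fourth (chrX:13939368-13939707) lay in an intron 188 bases upstream of the start at +4852, with a pooled signal of 36.3 (rank 413), 20.5 in replicate 1 (rank 566) and 17.1 in replicate 2 (rank 312). All 4 were among the 774 strongest regions of each replicate taken alone.

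A further region of the long intron, at +2098, was just outside the IDR list, with a pooled signal of 27.9 (rank 918) beside the lowest IDR signal of 29.5. It was among the 774 strongest of both replicates, with 19.8 in replicate 1 (rank 635) and 17.6 in replicate 2 (rank 280). The other 3 pooled regions of the *elt-3* window were weaker, at 22 (4099 bases upstream, where the nearest start is that of *meg-1*), 20.8 (2374 bases upstream) and 14.7 (at +464). Of the 8 pooled regions, 7 held a summit of both replicates, and the exception was the one at +464, which had no replicate 2 summit. Carrying 4 or more IDR summits in the window was shared by 4 coding genes in all (0.0200%), and 171 (0.856%) carried 2 or more. No coding gene had more than 5.

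**Figure D3:**
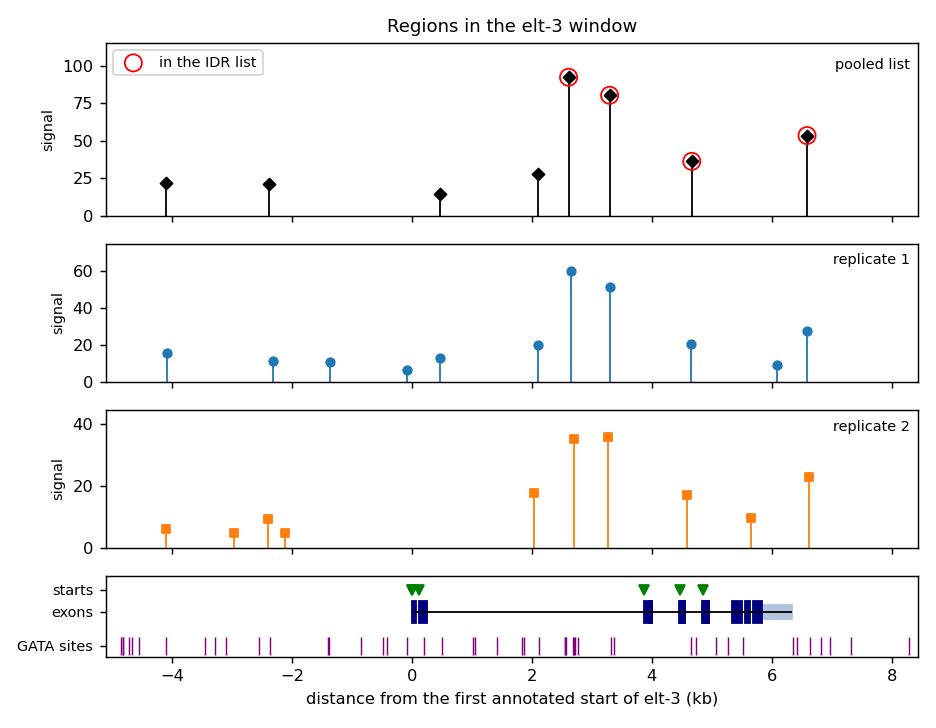
Signal of each region in the *elt-3* window in the pooled list (top, IDR regions circled), replicate 1 and replicate 2, against the distance from the first annotated start in kb. The lowest panel shows exons (dark boxes coding, pale boxes untranslated), starts (triangles) and GATA sites (ticks), and the strongest pair of regions in all 3 lists lies in the long intron.

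The *elt-3* window held 47 GATA sites, or 3.52 per kb, against 2.38 per kb over the genome, and 16 of them were in the long intron (4.42 per kb). The windows of *elt-2* (3.80 per kb), *med-2* (3.99) and *elt-1* (3.58) were denser in such sites than that of *elt-3*. Stretches within those windows were not counted, so they have no value to set beside the long intron. Of the 47 sites, 10 lay within 100 bases of an IDR summit. They comprised 8 of TGATAA, 1 of AGATAA and 1 of AGATAG, with 2 on the plus strand and 8 on the minus strand, and 4 were followed by G. Of these, 3 were centred within 50 bases of a summit, the nearest 8.5 bases away (+4664) and 17.5 bases away (+3295). In the strongest region, AGATAG and AGATAA overlap by 1 base at the left of the printed sequence and were counted as 2 sites. A region with 5 or more sites was uncommon in the IDR list (31 of 774, 4.01%), whereas 408 (52.7%) had at least 2.

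The wgIs75 transgene makes tagged ELT-3, so its copies hold sequence coding for ELT-3 and may add reads at the chromosomal gene. Whether they also hold the introns and flanks of *elt-3* is not stated in the sources used here. Pooled regions were also frequent around *elt-3*, outside the gene. Within 20 kb of the gene midpoint there were 29 pooled regions, 35 of replicate 1 and 29 of replicate 2, against a median of 12 over coding genes in each list. More were found at 0.305% of coding genes in the pooled list, at 0% in replicate 1 and at 0.220% in replicate 2. The median signal of the 29 was 19.6, beside 13.0 for the median coding gene with regions there.

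Leaving out the gene itself, the stretches from 7 to 20 kb on both sides of *elt-3* held 22 pooled regions, or 0.846 per kb, against a median of 0.308 per kb over coding genes, and 0.160% of coding genes had more. From 20 to 40 kb the counts were 15 in the pooled list, 17 in replicate 1 and 19 in replicate 2, and 24.5%, 14.5% and 5.93% of coding genes had more in these lists. The median pooled signal there was 15.1, and 7.42% of coding genes had a higher one. At the other 9 members the count within 20 kb ran from 8 (*egl-18* and *elt-6*) to 20 (*med-2*). Neighbouring genes share these windows, so the shares describe the locus and are not independent between genes. A pair of further IDR regions lay within 20 kb of *elt-3*, at chrX:13919952-13920291 (signal 31.8, nearest start *ekl-5*) and at chrX:13949313-13949652 (signal 33.8, 6 bases upstream of a start of *alg-1*, an Argonaute gene of the microRNA pathway). Both lay 7 to 20 kb from the gene midpoint, where 3.23% of coding genes had as many or more. In the same stretches *elt-1* and *med-2* each had 1 IDR region, with stronger signals of 39.98 and 45.96. The remaining members had none there. The part of transgene copies in the values around *elt-3* was not tested, and in these lists reads from the transgene and from the chromosomal gene cannot be told apart.

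**Figure D4:**
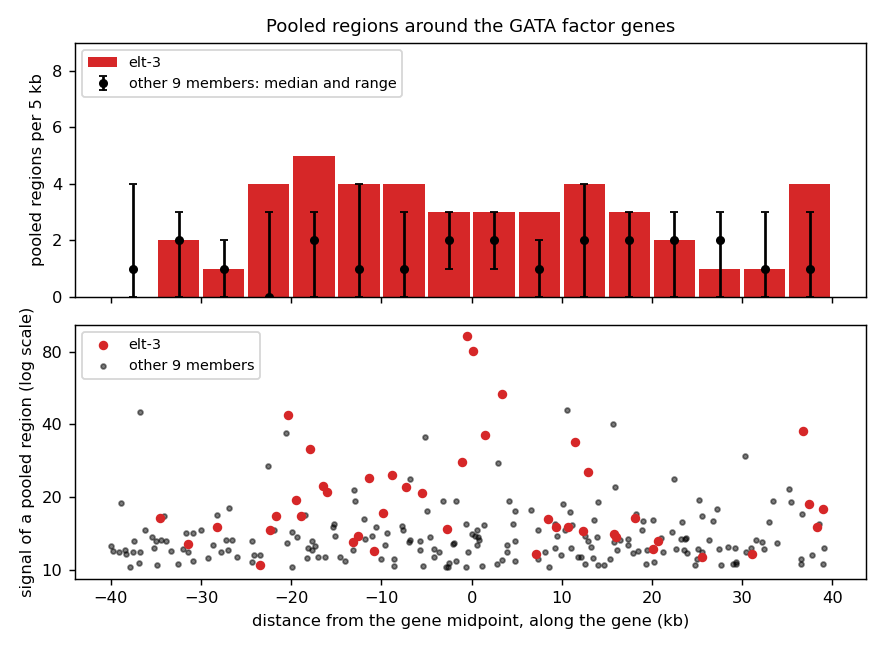
Pooled regions around the GATA factor genes against the distance from the gene midpoint in kb, as counts per 5 kb (top; bars *elt-3*, points the median and whiskers the range of the other 9 genes) and as signals of single regions (bottom, log axis; red *elt-3*, black the others). Within 20 kb of its midpoint *elt-3* has 29 regions and the others 8 to 20.

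*elt-1*, at the head of the epidermal chain (chromosome IV, 9614995 to 9620280), had 5 pooled regions and 0 in the IDR list. Its strongest, at +870 in an intron and 125 bases upstream of an internal start, had a pooled signal of 19.3 (rank 3187) and 15.1 in replicate 1 (rank 1547), and it contained no replicate 2 summit. In replicate 2 the strongest *elt-1* region was another one, 3798 bases upstream of the first start, with a signal of 8.58 (rank 4043). The replicates therefore placed the strongest *elt-1* region at different positions. Only 1 of the 5 pooled regions, at +3500, contained summits of both replicates, at 7.46 in replicate 1 and 4.98 in replicate 2, both below the medians of their lists (8.18 and 5.91).

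*egl-18* and *elt-6*, the seam cell pair, are neighbours on chromosome IV (1902322 to 1917840 and 1917977 to 1921643), and their windows overlap. The strongest *egl-18* region was in an intron at +4560, with a pooled signal of 19.4 (rank 3149), 10.1 in replicate 1 (rank 7350) and 5.55 in replicate 2 (rank 17482), and it held 3 GATA sites. It was not the strongest *egl-18* region of either replicate, which was at +12573 in a coding exon in replicate 1 (12.7, no GATA site) and 4338 bases upstream in replicate 2 (8.07, 1 GATA site). The strongest region in the *elt-6* window, 3082 bases upstream of *elt-6*, lies in a coding exon of *egl-18* and belongs to both windows. It had a pooled signal of 17.5 (rank 4714), 12.7 in replicate 1 and 4.73 in replicate 2, and no GATA site. All 4 pooled regions of the *elt-6* window lacked a GATA site within 100 bases of the summit, although the window held 27 of them.

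*med-1* (chromosome X, 12430609 to 12431133) had the 1 IDR region of the endodermal genes, but far from the gene. Its summit lay 4943 bases upstream, just inside the edge of the window, and 64 bases upstream of a start of another gene, T24D3.2 (region chrX:12425496-12425835). The pooled signal was 35.4 (rank 448), with 16 in replicate 1 (rank 1269) and 18.5 in replicate 2 (rank 233). The region was thus among the 774 strongest of replicate 2 and not of replicate 1, and it held no GATA site within 100 bases. The other pooled regions of *med-1* had signals of 13.7 (498 bases past the gene end) and 12.9 (1646 bases upstream).

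The near copy *med-2* (chromosome III, 6884503 to 6885027) had 3 pooled regions of 10.3 to 12.9, all upstream, and no replicate 2 region in its window. The *med-1* and *med-2* genes share 512 of 525 bases (97.5%), so reads within them could have been split or discarded and their values inside the gene are uncertain. The 500 bases before each gene were the same at 65.4% of positions, counted without gaps. No pooled summit lay within either *med* gene.

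*end-1* and *end-3*, which specify the endoderm and lie near each other on chromosome V (13985128 to 13987074 and 14014695 to 14015980), had 3 and 2 pooled regions, the strongest at 13.2 and 12.3. Those of *end-1* and *end-3* lay 4765 and 3489 bases upstream, nearest to the starts of *eol-1* and *ddx-17*. At *end-1* a further region at +1581 in an intron held summits of both replicates (12.8 pooled, 8.40 in replicate 1, 5.72 in replicate 2), while neither *end-3* region did. MED-1 and MED-2 are known to recognise AGTATAC, which was found on either strand 2 times in the 300 bases around the first start of *end-1* (250 before and 50 after) and 4 times at *end-3*. It was found in the same 300 bases of 1.70% of coding genes and in none of the other 8 members. In the longer gene windows it was found 4 times each at *elt-3* and *end-3* and 3 times at *end-1*. There it also occurred 2 times at *elt-7* and 1 time each at *elt-2* and *egl-18*.

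*elt-2*, the main factor of the differentiated intestine (chromosome X, 10481240 to 10483441), had 4 pooled regions of 10.3 to 13.9. The strongest, in an intron at +1517, had 8.40 in replicate 1 and no replicate 2 summit. *elt-7*, which acts beside it (chromosome V, 4770670 to 4773086), had 3 pooled regions, the strongest at +593 in an intron with 15.6 pooled (rank 7660), 12.4 in replicate 1 (rank 3351) and 5.15 in replicate 2 (rank 21211). The strongest replicate 2 regions lay elsewhere, 3527 bases upstream of *elt-2* (4.92) and in a coding exon of *elt-7* at +1238 (7.92). At *elt-2* and *elt-7* the values in all 3 lists were outside the 774 strongest. The 300 bases around the first start held 2 GATA sites at each of them, and 54.5% of coding genes had at least 1 there.

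The epidermal windows together held 19 pooled regions in 51.951 kb (0.366 per kb) and the endodermal windows 18 in 50.902 kb (0.354 per kb), against 0.299 per kb over the genome. Without *elt-3*, the epidermal density was 0.285 per kb (11 regions in 38.608 kb), and *elt-3* alone had 0.600. The median over coding gene windows was 0.278 per kb, and 8.63% of coding genes had a denser window than *elt-3*. In the pooled list the families thus differed little in how many regions were listed. The replicate lists set them further apart, at 0.520 epidermal and 0.393 endodermal per kb in replicate 1, and 0.385 and 0.295 in replicate 2. Without *elt-3* the epidermal density was 0.414 per kb in replicate 1 and 0.259 in replicate 2. The families differed in strength, with a median pooled signal of 17.5 in epidermal and 12.8 in endodermal regions. Without *elt-3* the epidermal median was 13.4, beside 13.1 for the whole list. Summits of both replicates were found in 11 of 19 epidermal regions (57.9%) and 5 of 18 endodermal regions (27.8%), against 33.7% over the pooled list. Without *elt-3* the epidermal share was 4 of 11 (36.4%).

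GATA sites within 100 bases of the summit were present in 13 of 19 epidermal regions (68.4%, 95% exact Clopper-Pearson interval 43.4 to 87.4) and in 7 of 18 endodermal regions (38.9%, 17.3 to 64.3). All 8 pooled *elt-3* regions had one (63.1 to 100), and without them 5 of 11 epidermal regions did (45.5%, 16.7 to 76.6). The replicate lists gave other shares. At *elt-3* it was 10 of 11 regions in replicate 1 (90.9%, 58.7 to 99.8) and 7 of 10 in replicate 2 (70%, 34.8 to 93.3). In replicate 1 it was 8 of 16 for the other epidermal genes (50%, 24.7 to 75.3) and 10 of 20 for the endodermal genes (50%, 27.2 to 72.8). In replicate 2 it was 6 of 10 for the other epidermal genes (60%, 26.2 to 87.8) and 4 of 15 for the endodermal genes (26.7%, 7.79 to 55.1), so the families were further apart there than in the pooled list, with intervals that overlap. Over the whole lists the share was 74.3% in IDR regions and 40.3% in pooled regions below the IDR threshold. The pooled interval of *elt-3*, where 4 of the 8 regions are IDR regions, contains the share of IDR regions and not that of regions below the threshold. The pooled intervals of the other 3 epidermal genes and of the endodermal genes contain the share of regions below the threshold, and they overlap. The intervals cover counting error only and treat regions of the same gene as independent. Those of the other 3 epidermal genes and of the endodermal genes are too wide to tell the families apart.

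**Figure D5:**
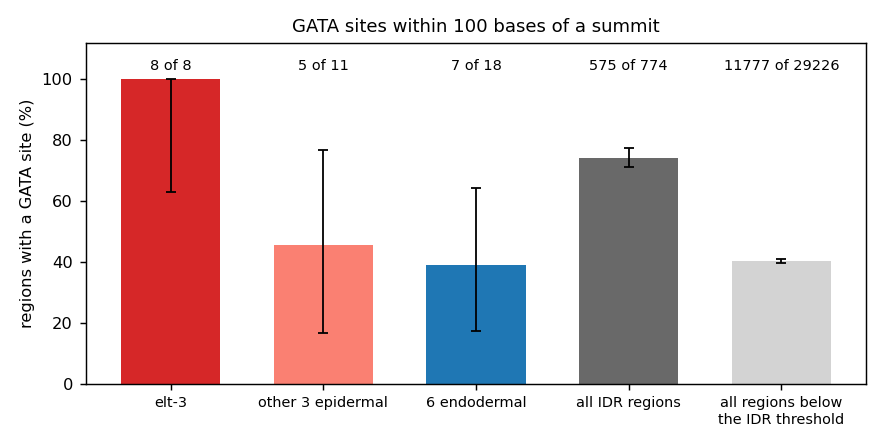
Percentage of regions with a GATA site within 100 bases of the summit, with 95% exact Clopper-Pearson intervals as whiskers, for pooled regions at *elt-3*, the other 3 epidermal and the 6 endodermal genes, all IDR regions and all pooled regions below the IDR threshold. The share is 8 of 8 at *elt-3*, 5 of 11 and 7 of 18 at the other genes, 575 of 774 in the IDR list and 40.3% below it.

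Regulators that share tissues with these factors were counted by the same window. Of 20 epidermal regulators outside the GATA family, 3 had an IDR summit (15%), again beside 6.9% of coding genes. They were *nhr-23*, a nuclear hormone receptor of molting (3 IDR summits, strongest 51.3), *blmp-1*, a zinc finger factor of developmental timing (31.2, in an intron, 4 GATA sites), and *hbl-1*, a hunchback homologue (29.8, past the gene end and nearest to the start of *acp-5*). Of the 21 endoderm specification and intestinal genes found, 1 had one (4.76%), *spl-1*, a sphingosine-1-phosphate lyase gene. The region in its window (29.7, no GATA site) lay nearest to the start of the ribosomal protein gene *rps-24*. SKN-1, which activates the *med* genes in the embryo, is encoded by a gene with a strongest pooled signal of 23.9 and no IDR summit. The medians of the strongest pooled signal were 17.8 over the epidermal list, with 1 gene without a region counted as lowest, and 18.4 over the 21 endodermal genes, both above the 15.3 of all coding genes.

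The 3 other genes with GATA-type zinc fingers also differed among themselves. *egl-27*, a relative of metastasis-associated chromatin proteins, had 3 IDR summits, the strongest in an intron at 75.3 (rank 24, 4 GATA sites), with 46.3 in replicate 1 and 25.8 in replicate 2. *elt-4*, a short gene related to *elt-2*, reached 15.3 and *lin-40* reached 14.4, both near the median of coding genes. By the distance between log2 ranks over the 3 lists, the coding genes whose strongest regions were most like those of *elt-3* were F45D3.3 and F45D3.4, which share a region (distance 0.714, pooled signal 90.7), *oatr-1*, an ornithine aminotransferase gene (1.05, 99.6), and R08D7.7 (1.09, 91.3).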

How the data were processed

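ChIP-seq of tagged ELT-3 was deposited as region lists for 2 biological replicates, for both pooled, and for the regions passing the irreproducible discovery rate (IDR) threshold. The values are a signal per region, deposited by the authors, which was used only to rank and describe regions within a list. No label, header or accompanying description states the aligner, peak caller or IDR threshold, and depth is unknown. The ce11 lists were used and the ce10 lists were not used here.

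Genes and starts came from Ensembl release 115 and sequence from the RefSeq copy of WBcel235, whose coordinates are those of ce11. Sites were sought on both strands within 100 bases of each summit, and overlapping sites were each counted. A replicate's signal was taken where its summit lay inside a region. Python 3.11.15, pandas 2.3.3 and scipy 1.17.1 were used, and the counting was tested on simulated data. Members and gene lists were chosen with earlier results of these data known, so shares are descriptions and no test was made. Named genes are the 10 members, genes whose start is nearest to their IDR regions, up to 4 members of each list with an IDR summit and the 4 genes nearest to *elt-3* by the Euclidean distance of log2 ranks in the pooled and replicate lists. *skn-1*, *elt-4*, *lin-40* and the genes neighbouring weaker or more distant regions were added after their values were seen. RefSeq protein sequences were not analysed here.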

Additional observations from a re-analysis of the deposited data

How the results depend on the processing

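The number of members with an IDR summit, 2, was 1 (*elt-3*) with a window from 1000 bases upstream to 200 downstream of any start, with one from 2000 bases upstream to the gene end, with assignment to the nearest start within 5000 bases, with the 387 strongest regions of the IDR list, and without *elt-3* (then *med-1*). The epidermal count of 1 became 0 without *elt-3*. The endodermal count of 1 became 0 under the first 4 of these settings. With the 774 strongest regions of the single remaining replicate, the counts ran from 1 to 2 for all members and from 0 to 1 for endodermal genes, the lower values being those of replicate 1, where *med-1* was lost. The *elt-3* window held 2 IDR regions with the 1000-base window and 3 or 4 under the other settings that used the IDR list. Of the 774 strongest regions of either replicate alone, it held 5. Epidermal density was 0.385 per kb with replicate 2 alone and 0.5197 per kb with replicate 1 alone, against 0.3657 in the pooled list. Member IDR regions with a GATA site numbered 3 to 5 of 5 over other motif windows, the *med-1* region gaining one beyond 100 bases. Endodermal density ran from 0.2947 to 0.3929 per kb. The top signal at *elt-3* is the same in the IDR list by construction, since that list takes its signals from the pooled one. No paired analysis was possible because there is 1 group. Unknown depth and the list floor of 10.3 limit what weak regions show, and the tissue of binding was not measured.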
